A study of Mus musculus with 11 samples.

Results

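A set of 43 genes of DNA replication and mitosis was followed in mouse facial processes at E10.5. The genes were given by symbol, and each matched 1 Ensembl identifier among the 38561 genes in the files. They comprise 21 genes used in S phase and 22 used in the G2 phase and mitosis (G2/M), which are grouped below by role. The RNA came from whole explants of the nasal processes together with the mandibular and maxillary parts of the branchial arch, dissected from embryos of mixed strain. The genotypes were wild type (wt, n = 2), Rspo2 gene homozygous mutant (Rspo2KO, n = 3), Wnt9b gene homozygous mutant (Wnt9bKO, n = 3) and Rspo2;Wnt9b double homozygous mutant (DKO, n = 3). The mutants are described as null, and which *Rspo2* allele the sequenced embryos carried is not given in the sources used here. *Wnt9b* encodes a WNT ligand of the ectoderm and *Rspo2* a secreted R-spondin that enhances WNT signalling. The comparisons ask whether losing either ligand or both alters the transcripts of the machinery of cell division in the growing face. The labels do not say which embryos were littermates or whether embryos were pooled, so p-values measure the spread between these samples, which may be technical.

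A dividing cell licenses its replication origins in G1, when CDC6 and CDT1 load the ring-shaped MCM complex onto DNA. In S phase CDC45 and the GINS complex turn that ring into an active helicase, DNA polymerases follow with the sliding clamp PCNA, and ribonucleotide reductase supplies the deoxynucleotides. Cyclin B with CDK1 then drives entry into mitosis, the Polo and Aurora kinases build the spindle, and the anaphase-promoting complex (APC/C) with CDC20 ends mitosis once the spindle checkpoint is satisfied. E2F factors activate many S-phase genes, and a later wave of G2/M genes is controlled through the cell cycle homology region (CHR) and CCAAT boxes of their promoters. Facial prominences at this stage grow by proliferation of their mesenchyme and epithelium.

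Depth and labels were examined before the comparisons. Total counts per library were 11136166 to 18017344, the members took 0.812 to 1.03% of them, and the lowest count of any member in any library was 151. *Rspo2* was at 14.8 and 16.0 CPM (counts relative to the scaled library total) in wt and at 4.74 to 6.59 CPM in Rspo2KO. The library labelled Wnt9bKO 2 (2.86 CPM) and the library labelled DKO 3 (15.5 CPM) went against their labels for *Rspo2*, so the number of members that passed in each comparison is also given without both. *Wnt9b* was at 10.8 to 13.4 CPM in wt and at 16.2 to 23.3 CPM in Wnt9bKO and DKO, and counts per gene do not show which exons were read. *Xist*, the RNA that coats an inactive X chromosome, stood at 679.6 to 1469 CPM in wt and DKO and under 2 CPM in both single mutants, so sex and genotype cannot be told apart in any comparison of a single mutant with wt or DKO, nor in the interaction, which sets wt and DKO against both single mutants. The summed small nuclear RNAs reached 352 to 420 CPM in wt and Rspo2KO but 70.1 to 82.7 CPM in Wnt9bKO and DKO, a difference that cannot be told apart from the *Wnt9b* genotype. In whole tissue, fewer dividing cells and less RNA of these genes per cell cannot be told apart.

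In the facial processes that lacked *Wnt9b*, more replication and mitosis genes fell than rose, and 32 of the 43 log2 fold changes were below 0 in both Wnt9bKO and DKO. Against wt, 24 of the 43 genes changed in Wnt9bKO at an adjusted p below 0.05 by edgeR's quasi-likelihood test, 18 of them lower and 6 higher. The genes that rose were *Mcm4*, *Cdt1*, *Rrm2*, *Plk1*, *Cenpe* and *Cenpf*. The share called was 55.8%, against 32.8% of the 17317 genes tested, with 16.8% of all genes called higher and 16.0% called lower. Highly expressed genes are called more often, and among the 8722 genes whose mean level was at least that of the lowest member 44.4% were called, a background chosen after the data were seen. In DKO 20 of 43 genes changed, 16 lower and 4 higher (*Cdt1*, *Rrm2*, *Plk1* and *Cenpf*), a share of 46.5% against 27.5% of all genes tested (14.3% higher and 13.1% lower) and 38.8% of those expressed as highly. The median log2 fold change of the members was -0.27 in Wnt9bKO and -0.22 in DKO, where the median of all genes tested was 0.01 in both.

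Both comparisons used the same 2 wt libraries, and leaving out either lowered the counts over all genes tested. These libraries weigh heavily on the counts of members too. Without wt 1 the counts were 11 in Wnt9bKO and 10 in DKO, and without wt 2 they were 14 and 12, with the remaining wt library assumed to vary as the other groups do. Without the libraries labelled Wnt9bKO 2 and DKO 3 they were 23 (5 higher and 18 lower) and 22 (4 higher and 18 lower). Over all genes tested 2603 were then higher and 2483 lower in Wnt9bKO, and 2246 and 2147 in DKO. With the rule of the study, an unadjusted p below 0.05 and a change over 1.5-fold, 11 members differed in each, against 24.8% of all genes in Wnt9bKO and 20.4% in DKO. Every library of Wnt9bKO lay below both wt libraries for 24 members and above them for 7, where 28.0% and 28.3% of all genes did so. In DKO these numbers were 26 and 6, against 28.6% and 29.5%.

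**Figure D1:**
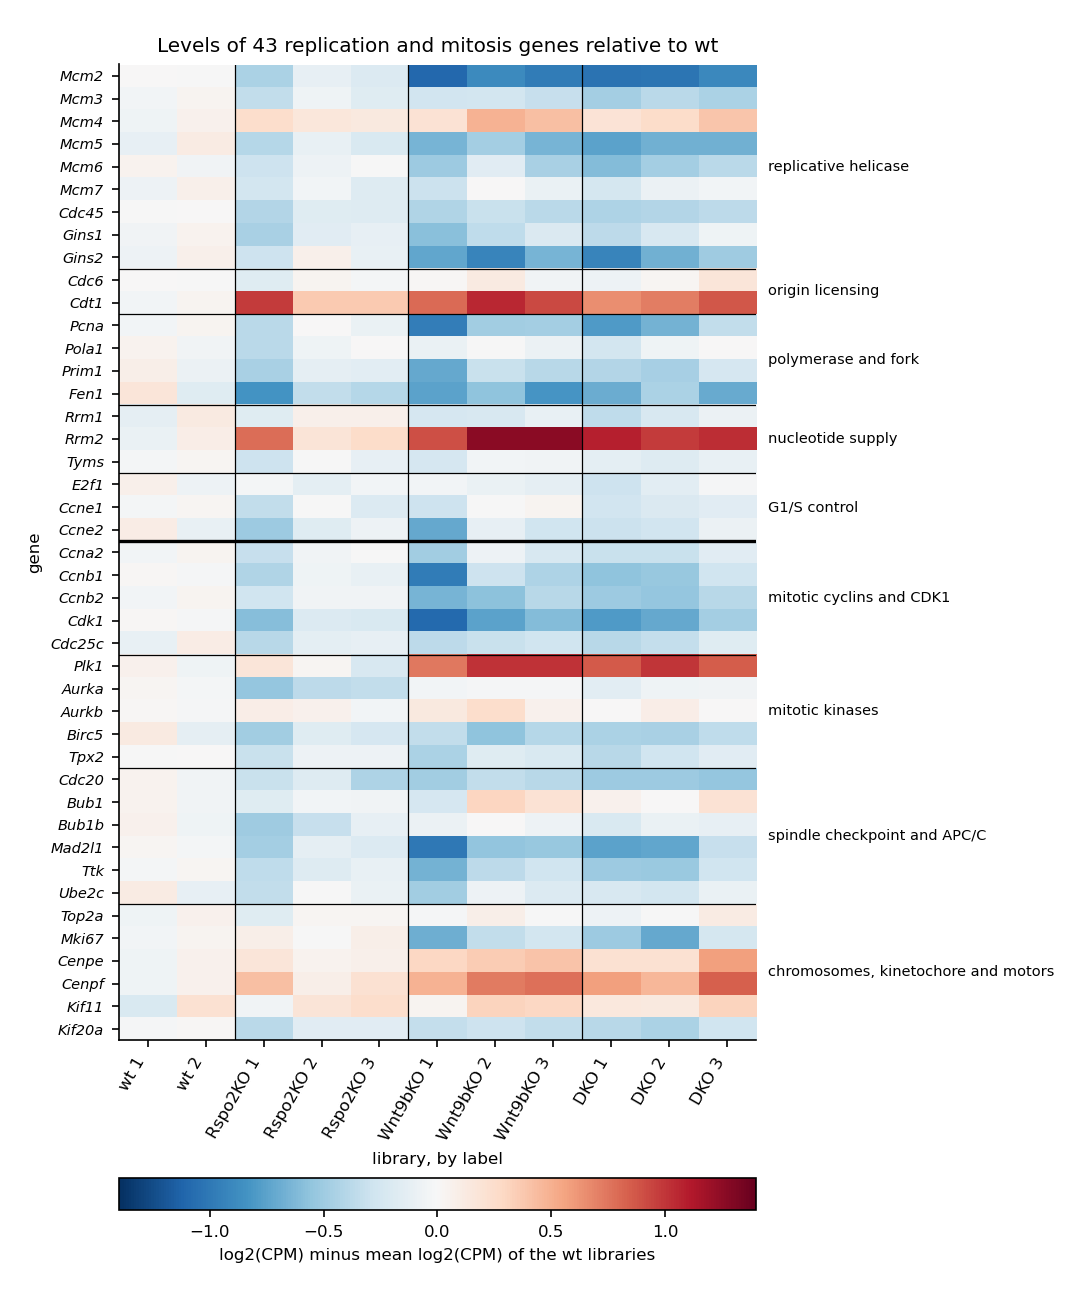
Heat map of the 43 genes (rows, grouped by role, S-phase genes above the thick line and G2/M genes below it) in the 11 libraries (columns). Colour gives the log2 CPM minus the mean log2 CPM of the wt libraries, with blue lower and red higher. In Wnt9bKO and DKO 32 of the 43 log2 fold changes are below 0 and 11 above it, the reddest rows being *Rrm2*, *Cdt1* and *Plk1*.

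The replicative helicase held the steepest fall. Of its 9 genes, 5 fell and 1 rose in Wnt9bKO, and 6 fell in DKO. *Mcm2* was at 458 and 454 CPM in wt, 213, 246 and 231 in Wnt9bKO, 223, 224 and 243 in DKO and 336, 419 and 399 in Rspo2KO. The wt libraries lay above every mutant library, and the Wnt9bKO and DKO libraries lay below all those of Rspo2KO. The log2 fold change of *Mcm2* (ENSMUSG00000002870, chromosome 6 from 88883474 to 88898780 of GRCm38), an MCM ring subunit, was -0.99 (standard error 0.11, adjusted p = 4.05e-05) in Wnt9bKO and -0.98 (standard error 0.11, adjusted p = 4.71e-05) in DKO, a fall to about the same level in both. *Mcm5* was at 432 and 509.5 CPM in wt, 298, 336 and 299 in Wnt9bKO, 279, 295 and 295 in DKO and 355, 438 and 404 in Rspo2KO. *Mcm5*, which encodes the subunit that forms the gate of the ring with MCM2, fell by 0.60 on the log2 scale in Wnt9bKO (standard error 0.12, adjusted p = 0.00174) and by 0.70 in DKO (standard error 0.12, adjusted p = 0.000774), with no overlap with wt in either.

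*Gins2* (ENSMUSG00000031821, chromosome 8 from 120578633 to 120589304) encodes a GINS subunit of the active helicase. *Gins2* was at 47.2 and 51.7 CPM in wt, 29.8, 26.1 and 31.4 in Wnt9bKO, 26.1, 30.9 and 35.0 in DKO and 40.4, 52.0 and 45.9 in Rspo2KO. Its Wnt9bKO and DKO libraries all lay below the other 5 libraries, with log2 fold changes of -0.77 (standard error 0.14, adjusted p = 0.00108) and -0.69 (standard error 0.14, adjusted p = 0.00276). It lies opposite *Gse1* and the gene model *Gm20388* on the genome, and since the strand setting of the counting is not given in the sources used here, reads shared with them are uncertain. Of the remaining helicase genes, *Mcm6* fell by 0.37 in Wnt9bKO and 0.49 in DKO on the log2 scale and *Cdc45* fell by 0.37 and 0.40. *Mcm3* fell in DKO (-0.43, adjusted p = 0.00844) and had a log2 fold change of -0.29 (adjusted p = 0.0522) in Wnt9bKO. *Mcm7* was at -0.13 and -0.12 and *Gins1* at -0.38 and -0.21, and neither passed the test. *Mcm4* went the other way, with a rise of 0.37 in Wnt9bKO (adjusted p = 0.0205) and a value of 0.28 in DKO (adjusted p = 0.0784).

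The MCM ring holds each of its 6 subunits once, so the balance of the transcripts was also read per length of exon. In wt the levels per kb were 65.8 and 65.2 CPM for *Mcm2* and 45.4 and 49.0 CPM for *Mcm4*. In Wnt9bKO they were 30.6, 35.4 and 33.2 CPM per kb for *Mcm2* and 54.1, 66.2 and 63.0 CPM per kb for *Mcm4*. The ratio of *Mcm2* to *Mcm4* per kb was thus 1.45 and 1.33 in wt and 0.526 to 0.565 in Wnt9bKO, with 0.566 to 0.597 in DKO and 0.863 to 1.14 in Rspo2KO. Per kb, *Mcm4* thus stood above *Mcm2* in all 6 libraries of Wnt9bKO and DKO and in Rspo2KO 1, and the Rspo2KO ratios lay between those of wt and of the other mutants. That crossing rests on the lengths used, the union of all annotated exons, 6956 bases for *Mcm2* and 3589 for *Mcm4*. Without division by length, *Mcm2* stayed above *Mcm4* in every library. The ratio of counts was 2.81 and 2.58 in wt, 1.02 to 1.10 in Wnt9bKO and 1.10 to 1.16 in DKO. *Mcm5* was the most abundant of the 6 per kb in wt (108 and 128 CPM), while in every library of Wnt9bKO and DKO *Mcm7* stood above it. Of the calls in this group, those of *Mcm2*, *Mcm5* and *Gins2* held in all 22 alternatives in both genotypes. The call of *Mcm4* in Wnt9bKO was lost without wt 1, wt 2 or Wnt9bKO 2, without the libraries labelled Wnt9bKO 2 and DKO 3 (0.31, adjusted p = 0.0673) and in the fit of only the groups compared (adjusted p = 0.0615), its value lying between 0.31 and 0.45 over the 22 alternatives. That of *Mcm6* in Wnt9bKO was lost without wt 1, wt 2, Rspo2KO 2, Wnt9bKO 1, Wnt9bKO 3 or DKO 2 (-0.49 to -0.30 over the 22 alternatives). It was also lost in the fit of only the groups compared (-0.37, adjusted p = 0.073). In DKO the call of *Mcm6* was lost without wt 1 (-0.45) or DKO 1 (-0.43, adjusted p = 0.0558). *Mcm3* lost its call in DKO without wt 2 (-0.39, adjusted p = 0.0719). That of *Cdc45* was lost in Wnt9bKO without wt 1 (-0.38, adjusted p = 0.0587) or wt 2 (-0.37, adjusted p = 0.0703), and in DKO without wt 2 (-0.40, adjusted p = 0.0593).

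**Figure D2:**
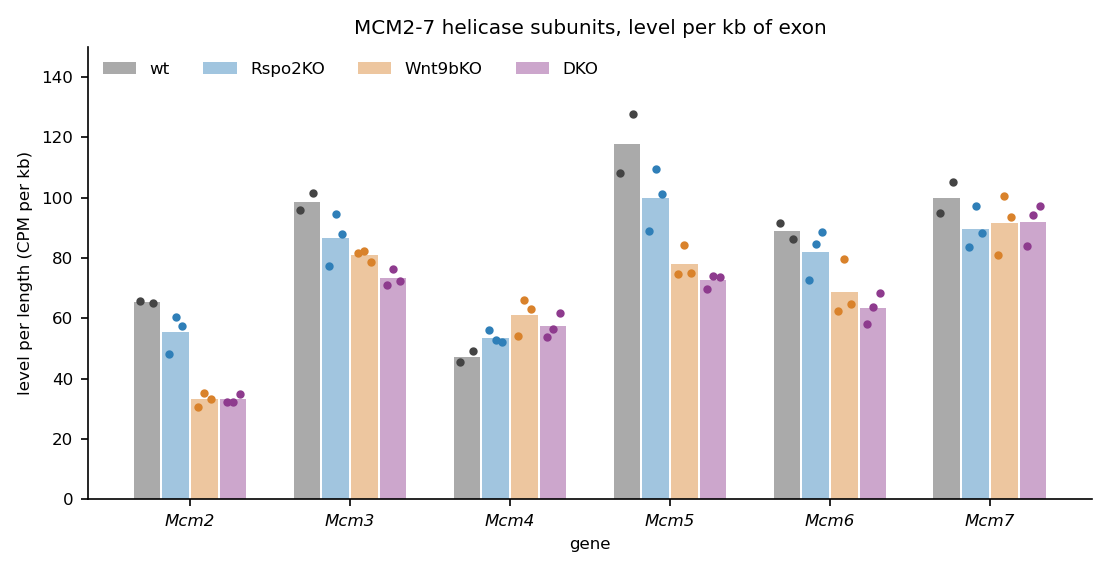
Level per length (CPM per kb of exon) of the 6 MCM subunit genes in each genotype, bars giving the mean and points the libraries (2 of wt, 3 of each mutant). *Mcm2* drops from 65.2 to 65.8 CPM per kb in wt to 30.6 to 35.4 in Wnt9bKO while *Mcm4* stands higher there than in wt.

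The promoters of *Mcm2*, *Mcm5* and *Rrm2* are shown because these are S-phase genes with clear and opposite changes. The sequences are the 200 bases before the start of each gene from RefSeq (GRCm38.p6), written 5′ to 3′ on the strand of the gene, at chr6:88898781-88898980 (minus strand), chr8:75109309-75109508 (plus strand) and chr12:24708054-24708253 (plus strand). The last 13 bases of the *Rrm2* stretch lie inside the gene as annotated in the files' build, where the start is placed further upstream, and 0 bases of the other stretches do. Capitals mark the CHR letters TTTGAA, the CCAAT box (written ATTGG where it lies on the opposite strand) and the E2F letters TTTGGCG with their variants TTTCGCG and lastly TTTCCCG, all searched on both strands.
*Mcm2*: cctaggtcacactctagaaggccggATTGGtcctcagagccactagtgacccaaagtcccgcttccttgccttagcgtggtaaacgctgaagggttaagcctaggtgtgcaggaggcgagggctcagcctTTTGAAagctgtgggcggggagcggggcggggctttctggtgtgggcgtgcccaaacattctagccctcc
*Mcm5*: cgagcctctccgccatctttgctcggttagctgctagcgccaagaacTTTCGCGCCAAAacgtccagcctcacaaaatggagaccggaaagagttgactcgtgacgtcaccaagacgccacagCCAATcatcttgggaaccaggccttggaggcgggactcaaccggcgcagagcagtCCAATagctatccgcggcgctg
*Rrm2*: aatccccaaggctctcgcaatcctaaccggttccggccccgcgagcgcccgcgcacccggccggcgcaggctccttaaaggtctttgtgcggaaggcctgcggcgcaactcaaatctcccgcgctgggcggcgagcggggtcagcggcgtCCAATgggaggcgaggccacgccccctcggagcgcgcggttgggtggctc
*Mcm2* carries a CHR match and a CCAAT box. *Mcm5* carries an E2F match on each strand, which overlap, and a pair of CCAAT boxes, and *Rrm2*, which rose, carries a CCAAT box and no other match in this window.

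In origin licensing 1 of 2 genes rose in each genotype, and in nucleotide supply 1 of 3. *Cdt1* (ENSMUSG00000006585, chromosome 8 from 122568015 to 122573554) loads the MCM ring and is normally restrained outside G1. *Cdt1* was at 18.5 and 19.4 CPM in wt, 32.9, 39.3 and 36.0 in Wnt9bKO, 29.8, 31.0 and 34.6 in DKO and 37.2, 24.3 and 24.4 in Rspo2KO. Every mutant library lay above both wt libraries. Its log2 fold change was 0.93 (standard error 0.17, adjusted p = 0.00123) in Wnt9bKO and 0.75 (standard error 0.17, adjusted p = 0.00605) in DKO, and the call in DKO was lost without wt 1 (0.71, adjusted p = 0.0709). *Cdt1* lies within the same-strand gene model *Gm20388*, to which 0 counts were assigned in these libraries, so that the counting of the overlap is uncertain. Its partner *Cdc6* was at 0.03 (adjusted p = 0.833) and 0.05 (adjusted p = 0.784).

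*Rrm2* (ENSMUSG00000020649, chromosome 12 from 24708241 to 24714146) encodes the small subunit of ribonucleotide reductase, whose supply is tied to S phase. *Rrm2* was at 102 and 116 CPM in wt, 203, 261 and 259 in Wnt9bKO, 231, 214 and 222 in DKO and 186, 123 and 129.9 in Rspo2KO. The Wnt9bKO and DKO libraries all lay above the other 5, although Rspo2KO 1 came close to them. *Rrm2* had the largest rise of the 43 genes, 1.15 (standard error 0.17, adjusted p = 0.000236) in Wnt9bKO and 1.03 (standard error 0.17, adjusted p = 0.000596) in DKO, and held in all 22 alternatives. The large subunit gene *Rrm1* did not pass in either (-0.19, adjusted p = 0.262, and -0.22, adjusted p = 0.203). The ratio of *Rrm2* to *Rrm1* per kb was 0.816 and 0.780 in wt, 1.76 to 2.24 in Wnt9bKO and 1.73 to 2.18 in DKO, with 0.859, 0.911 and 1.53 in Rspo2KO. *Tyms*, the gene of thymidylate synthase, was at -0.10 and -0.14 and did not pass.

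Of the 4 genes of the fork and its polymerases, 3 fell in Wnt9bKO and 2 in DKO. *Pcna* was at 273 and 285 CPM in wt, 143, 199 and 201 in Wnt9bKO, 161, 176 and 220.0 in DKO and 214, 279 and 262 in Rspo2KO. Every Wnt9bKO library and every DKO library lay below wt, while Rspo2KO overlapped it. *Pcna*, the sliding clamp, fell by 0.63 in Wnt9bKO on the log2 scale (standard error 0.16, adjusted p = 0.0096) and by 0.59 in DKO (standard error 0.16, adjusted p = 0.0161). The first call was lost without wt 2 (-0.60, adjusted p = 0.0654), and the second without wt 1, wt 2, DKO 1 or DKO 2, with an adjusted p of at most 0.0963. *Fen1* was at 22.7 and 18.0 CPM in wt, 12.0, 13.7 and 11.4 in Wnt9bKO, 12.5, 14.8 and 12.4 in DKO and 11.3, 15.9 and 15.3 in Rspo2KO. *Fen1*, the flap nuclease of Okazaki fragment maturation, had the lowest counts of this group and fell by 0.71 and 0.62 on the log2 scale (adjusted p = 0.00542 and 0.0148), not overlapping with wt. Both of its calls were lost without wt 1 (-0.55, adjusted p = 0.0779, and -0.45, adjusted p = 0.16) and that in DKO also without DKO 1 (-0.58, adjusted p = 0.0531). It overlaps *Gm10143* and *Tmem258* on the opposite strand. The primase gene *Prim1* fell in Wnt9bKO (-0.46, adjusted p = 0.0182) but had -0.37 (adjusted p = 0.0564) in DKO, and its partner *Pola1* was at -0.06 and -0.10 without passing. Without wt 1 the call of *Prim1* was lost (-0.38, adjusted p = 0.156).

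None of the 3 genes of G1/S control passed in either genotype. *E2f1* was at 27.3 and 24.6 CPM in wt, 25.2, 24.3 and 23.9 in Wnt9bKO, 21.2, 23.5 and 25.7 in DKO and 25.4, 23.6 and 25.3 in Rspo2KO. *Ccne1* was at 64.3 and 66.8 CPM in wt, 53.6, 65.4 and 67.4 in Wnt9bKO, 54.3, 56.7 and 58.7 in DKO and 51.7, 65.1 and 57.4 in Rspo2KO. Both genes overlapped with wt in Wnt9bKO. For *E2f1*, the E2F factor that activates S-phase genes, the log2 fold change was -0.08 (adjusted p = 0.613) in Wnt9bKO, with a 95% confidence interval from -0.34 to 0.17, and -0.15 (adjusted p = 0.388) in DKO. *Ccne1* and *Ccne2* encode cyclins E, which drive entry into S phase with CDK2, and stood at -0.08 and -0.35 in Wnt9bKO and at -0.21 and -0.22 in DKO.

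Among the mitotic genes, the cyclin B and CDK1 module was lower. Of its 5 genes 4 fell in Wnt9bKO and 2 in DKO, and the median log2 fold change was -0.54 in Wnt9bKO. *Cdk1* was at 240.1 and 233 CPM in wt, 112, 141 and 155 in Wnt9bKO, 137, 144 and 169.6 in DKO and 156, 207 and 204 in Rspo2KO. No mutant library reached the wt level, and Wnt9bKO 1 was the lowest. *Cdk1* (ENSMUSG00000019942, chromosome 10 from 69335146 to 69352938), the kinase that starts mitosis, had log2 fold changes of -0.80 (standard error 0.15, adjusted p = 0.00126) and -0.66 (standard error 0.15, adjusted p = 0.00551) in Wnt9bKO and DKO, and both calls held in all 22 alternatives. *Ccnb1* was at 239 and 235 CPM in wt, 121, 194 and 175 in Wnt9bKO, 161, 164 and 196 in DKO and 177, 228 and 220.5 in Rspo2KO. *Ccnb2* was at 117 and 123 CPM in wt, 76.4, 80.6 and 91.8 in Wnt9bKO, 84.2, 82.6 and 91.8 in DKO and 99.2, 116 and 116 in Rspo2KO. For both cyclin B genes every mutant library lay below wt. *Ccnb2* fell in Wnt9bKO (-0.54, adjusted p = 0.00216) and in DKO (-0.48, adjusted p = 0.00543), the latter call being lost without wt 2 (-0.45, adjusted p = 0.0537). *Ccnb1* fell in Wnt9bKO (-0.54, adjusted p = 0.025) and had -0.45 (adjusted p = 0.0619) in DKO. Its call in Wnt9bKO was lost without wt 1 (-0.53), wt 2 (-0.56) or Wnt9bKO 1 (-0.36, adjusted p = 0.0566). The fit of only the groups compared lost it as well (-0.54, adjusted p = 0.0569). Reads of *Ccnb2* may be shared with its pseudogene *Ccnb2-ps*, to which 83 to 200 counts were assigned per library. *Cdc25c*, the phosphatase that activates CDK1, fell in Wnt9bKO (-0.33, adjusted p = 0.0431, held in 9 of 22 alternatives, and lost without the libraries labelled Wnt9bKO 2 and DKO 3, adjusted p = 0.0665) and *Ccna2* passed in neither.

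The mitotic kinases did not move as a block. *Plk1* (ENSMUSG00000030867, chromosome 7 from 122159439 to 122169873), a kinase of mitotic entry and spindle assembly, rose. *Plk1* was at 42.2 and 38.8 CPM in wt, 67.6, 81.7 and 81.7 in Wnt9bKO, 73.4, 81.3 and 72.8 in DKO and 45.5, 41.3 and 34.8 in Rspo2KO. All 6 libraries of Wnt9bKO and DKO stood above all 5 of wt and Rspo2KO. The rise was 0.93 (standard error 0.13, adjusted p = 0.000192) in Wnt9bKO and 0.90 (standard error 0.13, adjusted p = 0.000267) in DKO on the log2 scale, held in all 22 alternatives. *Aurka* was at 109 and 105 CPM in wt, 104, 105 and 106 in Wnt9bKO, 96.1, 102 and 103 in DKO and 73.0, 82.9 and 84.0 in Rspo2KO. *Aurka*, the Aurora kinase of the centrosome, overlapped with wt in Wnt9bKO (-0.02, 95% confidence interval -0.23 to 0.18) and had -0.08 (adjusted p = 0.554) in DKO. *Birc5*, the survivin subunit of the chromosomal passenger complex, fell by 0.44 and 0.42 on the log2 scale, whereas its kinase *Aurkb* (0.15 and 0.03) and the spindle factor *Tpx2* (-0.27 in both) did not pass. Both calls of *Birc5* were lost without wt 1 (-0.32, adjusted p = 0.137, and -0.30, adjusted p = 0.179), and that in DKO also without DKO 1 (-0.41, adjusted p = 0.0539) or DKO 2 (-0.40, adjusted p = 0.0533).

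Of the 6 genes of the spindle checkpoint and APC/C, 3 fell in each genotype. *Cdc20* was at 162 and 151 CPM in wt, 112, 123 and 119.6 in Wnt9bKO, 109.8, 110.1 and 107 in DKO and 126, 138 and 116 in Rspo2KO. Every mutant library lay below both wt libraries. *Cdc20*, the activator of the APC/C, fell by 0.40 in Wnt9bKO (standard error 0.10, adjusted p = 0.0069) and by 0.52 in DKO (standard error 0.10, adjusted p = 0.00185). The former call was lost with a correction for GC content and gene length (-0.24, adjusted p = 0.0947) and without wt 1 (-0.36, adjusted p = 0.0728). The checkpoint genes *Mad2l1* (-0.68, adjusted p = 0.005, and -0.59, adjusted p = 0.0137) and *Ttk* (-0.43, adjusted p = 0.0196, and -0.43, adjusted p = 0.0214) also fell, the former without loss in Wnt9bKO over the 22 alternatives. *Ttk* lost both calls without either wt library, that in Wnt9bKO also without Wnt9bKO 1 (-0.32, adjusted p = 0.0531) and that in DKO without DKO 1 or DKO 2, and *Mad2l1* lost its call in DKO without either wt library, DKO 1 or DKO 2. *Bub1b* was at 294 and 269 CPM in wt, 265, 283 and 268 in Wnt9bKO, 243, 263 and 260.3 in DKO and 199.8, 225 and 259.7 in Rspo2KO. *Bub1b*, the checkpoint kinase-like protein BUBR1, overlapped with wt in Wnt9bKO and did not pass (-0.05 and -0.14), nor did *Bub1* (0.11 and 0.09) or *Ube2c*, the ubiquitin-conjugating enzyme of the APC/C (-0.24 and -0.19).

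The 6 genes of chromosomes, kinetochore and motors were divided. *Mki67* was at 1135 and 1195 CPM in wt, 726, 917 and 971 in Wnt9bKO, 819, 708 and 983 in DKO and 1230.4, 1164 and 1229 in Rspo2KO. *Mki67*, the proliferation marker that coats mitotic chromosomes, lay below wt in every Wnt9bKO and DKO library and overlapped with it in Rspo2KO. It fell by 0.42 on the log2 scale in Wnt9bKO (standard error 0.15, adjusted p = 0.0437) and by 0.48 in DKO (standard error 0.15, adjusted p = 0.028). These calls held in 13 and 18 of 22 alternatives, being lost without either wt library with an adjusted p of at most 0.178 and 0.139. *Cenpf* was at 251 and 274 CPM in wt, 368, 433 and 449 in Wnt9bKO, 390.4, 362 and 469 in DKO and 350.0, 278 and 304 in Rspo2KO. *Cenpf*, a large kinetochore protein, stood above wt in every mutant library and rose in Wnt9bKO (0.67, standard error 0.14, adjusted p = 0.00272) and DKO (0.63, standard error 0.14, adjusted p = 0.00473). With a correction for GC content and length the values were 0.28 (adjusted p = 0.0787) and 0.24 (adjusted p = 0.129), so both calls were lost, and that in DKO was also lost without wt 1 (0.56, adjusted p = 0.0746). The kinetochore motor *Cenpe* rose in Wnt9bKO (0.35, adjusted p = 0.042) and fell short in DKO (0.34, adjusted p = 0.0517), and with the same correction it had 0.11 (adjusted p = 0.462) in Wnt9bKO. That call of *Cenpe* held in 13 of 22 alternatives and was also lost without wt 1, wt 2, Rspo2KO 3, Wnt9bKO 2 or Wnt9bKO 3. The replicate block (adjusted p = 0.0588) and the fit of only the groups compared (adjusted p = 0.0522) lost it too. *Kif20a*, a kinesin of cytokinesis, fell by 0.32 and 0.37, with both calls lost without either wt library. The first was also lost without Wnt9bKO 2, Wnt9bKO 3 or a filter on low counts (adjusted p = 0.0664), and the second without DKO 1 or DKO 2. *Top2a*, the topoisomerase that untangles chromosomes and the most abundant member per kb in wt (143 CPM), was at 0.02 in both, and the spindle motor *Kif11* at 0.20 and 0.19 did not pass.

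**Figure D3:**
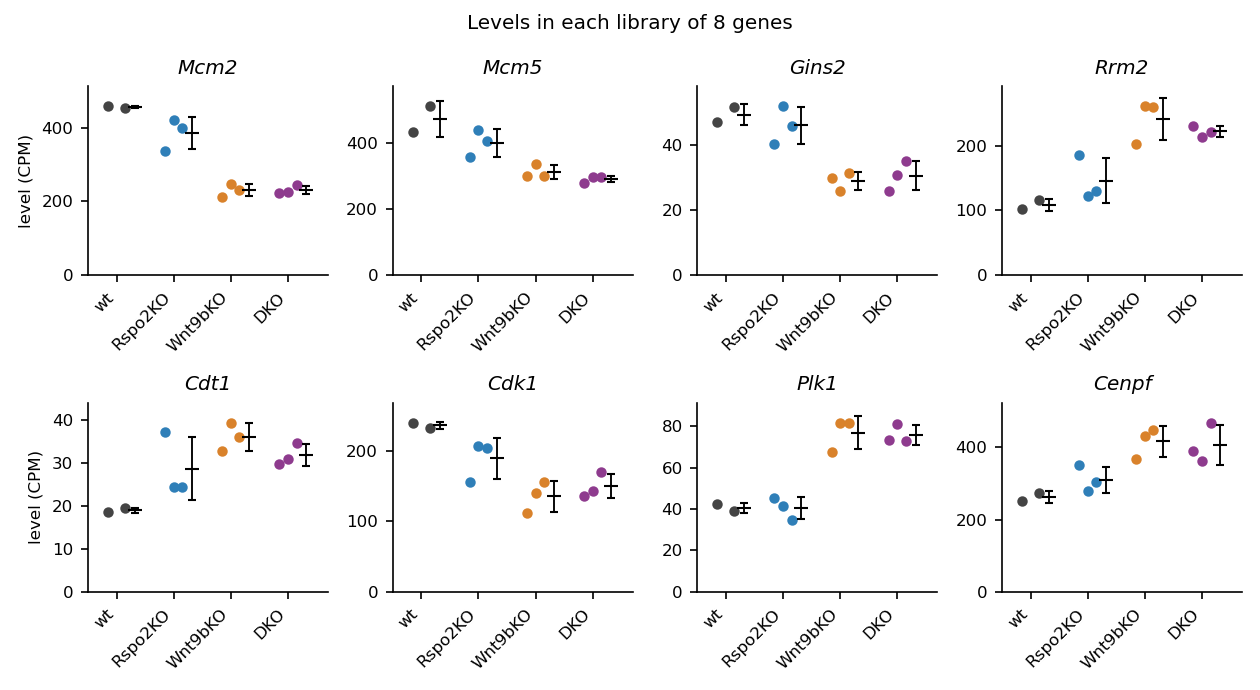
Level in CPM of 8 of the genes in each library (points), with the mean and SD of each genotype beside them (n = 2 for wt and 3 for each mutant). *Mcm2*, *Mcm5*, *Gins2* and *Cdk1* lie below wt in all 6 libraries of Wnt9bKO and DKO, and *Rrm2*, *Cdt1*, *Plk1* and *Cenpf* lie above it.

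Promoters of 4 G2/M genes are printed since they share the same elements and differed in direction. *Cdk1*, *Cdc20* and *Mki67* fell and *Cenpf* rose. As before, these are the 200 bases before the start from RefSeq (GRCm38.p6), at chr10:69352913-69353112 (minus strand), chr4:118437344-118437543 (minus strand), chr7:135716380-135716579 (minus strand) and chr1:189688087-189688286 (minus strand), with matches to CHR, CCAAT and E2F letters in capitals. The annotated gene starts further upstream for *Cdk1* and *Cdc20*, so that the last 26 and 9 bases of their stretches lie inside it.
*Cdk1*: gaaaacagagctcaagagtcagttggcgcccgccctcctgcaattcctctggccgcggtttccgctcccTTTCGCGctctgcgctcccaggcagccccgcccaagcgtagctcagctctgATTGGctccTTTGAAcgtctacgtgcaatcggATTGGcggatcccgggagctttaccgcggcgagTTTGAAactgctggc
*Cdc20*: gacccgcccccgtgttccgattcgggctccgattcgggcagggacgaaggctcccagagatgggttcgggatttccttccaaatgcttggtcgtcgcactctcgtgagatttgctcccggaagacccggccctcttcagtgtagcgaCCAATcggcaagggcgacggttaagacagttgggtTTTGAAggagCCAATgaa
*Mki67*: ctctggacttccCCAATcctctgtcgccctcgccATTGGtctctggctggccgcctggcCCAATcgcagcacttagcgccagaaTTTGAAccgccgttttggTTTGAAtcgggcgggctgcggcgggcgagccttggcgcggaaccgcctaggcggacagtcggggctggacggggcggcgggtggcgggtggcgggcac
*Cenpf*: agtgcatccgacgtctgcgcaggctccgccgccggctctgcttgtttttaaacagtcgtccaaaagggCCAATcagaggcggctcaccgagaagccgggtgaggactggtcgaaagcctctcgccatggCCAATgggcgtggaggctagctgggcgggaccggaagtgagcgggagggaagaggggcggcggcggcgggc
The first 3 hold CHR and CCAAT matches, and *Cdk1* also holds an E2F match. *Cenpf* holds a pair of CCAAT boxes here, and its CHR match begins 2 bases after the start, outside the printed stretch.

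In the longer windows that RefSeq provides, from 250 bases before to 50 after the start, 34 of the 43 members have a sequence, 17 of each phase. A CHR match was present in 12 of 17 G2/M members (70.6%) and in 3 of 17 S-phase members (17.6%, *Mcm2*, *Cdc45* and *Fen1*), against 20.2% of the 27025 genes with a window. CCAAT boxes were present in 88.2% of G2/M and 64.7% of S-phase members, against 41.1% of all genes. An E2F match was present in 47.1% of S-phase members and 11.8% of G2/M members (*Cdk1* and *Birc5*), against 6.38% of all genes. The elements did not sort the genes by direction. Of the 12 G2/M members with both CHR and CCAAT, 2 rose in Wnt9bKO (*Plk1* and *Cenpf*), 5 fell (*Ccnb2*, *Cdk1*, *Cdc20*, *Ttk* and *Mki67*) and 5 did not pass (*Aurka*, *Bub1b*, *Top2a*, *Kif11* and *Ube2c*), and the numbers in DKO were the same. The 3 S-phase members with CHR all fell in both genotypes. A match is a description of letters and says nothing of binding.

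Loss of *Rspo2* alone gave no change in these genes that passed the test. In Rspo2KO 0 of 43 members had an adjusted p below 0.05 by edgeR, where 0.0346% of all genes did, and 9 had an unadjusted p below 0.05, against 11.9% of all genes. The median log2 fold change was -0.15, with 34 values below and 9 above 0. Over all genes tested the median was 0.001 and the first quartile -0.15. The 95% confidence intervals of all members lay between -0.87 and 0.96. The smallest p belonged to *Aurka*, which was at 73.0, 82.9 and 84.0 CPM in Rspo2KO against 109 and 105 CPM in wt (-0.41, standard error 0.10, adjusted p = 0.206). DESeq2 called 1 member, *Aurka* (adjusted p = 0.0128). *Cdt1* (0.59, adjusted p = 0.224), *Cdc20* (-0.31, adjusted p = 0.266), *Fen1* (-0.51, adjusted p = 0.273) and *Bub1b* (-0.30, adjusted p = 0.315) did not pass, and *Cdt1* alone met the study's rule, which 4.68% of all genes met. Without a filter on low counts *Cdt1* passed (adjusted p = 0.0133). *Rrm2* had 0.43 (adjusted p = 0.323) and *Plk1* 0.00 (adjusted p = 1).

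The library Rspo2KO 1 stood apart from the others of its genotype in some of these genes. It held *Rrm2* at 186 CPM against 123 and 129.9 CPM, *Cdt1* at 37.2 CPM against 24.3 and 24.4 CPM, and *Cdk1* at 156 CPM against 207 and 204 CPM. In each of *Rrm2*, *Cdt1* and *Cdk1* it was the Rspo2KO library nearest to Wnt9bKO and DKO. For *Bub1b* it was the farthest from them (199.8 CPM against 225 and 259.7 CPM). For *Mki67* it did not stand apart (1230.4 CPM against 1164 and 1229 CPM). Without the libraries labelled Wnt9bKO 2 and DKO 3, 0 members passed in Rspo2KO. Without Rspo2KO 1 this was 0 as well, and the counts were 26 in Wnt9bKO and 23 in DKO. Over all genes tested 3120 were then higher and 2974 lower in Wnt9bKO, and 2725 and 2485 in DKO.

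Adding the loss of *Rspo2* to that of *Wnt9b* gave no change in these genes that passed the test. Between DKO and Wnt9bKO 0 of 43 members passed by edgeR, where 0.121% of all genes did, and 0 had an unadjusted p below 0.05 (5.63% of all genes). DESeq2 also called 0. The log2 differences lay between -0.18 and 0.17, and their 95% confidence intervals between -0.50 and 0.45, which bounds any difference but does not show that there was none. The libraries of both groups overlapped for *Mcm2*, *Rrm2*, *Plk1* and *Cdk1*. Every DKO library lay below every Wnt9bKO library for 5 members (*Mcm3*, *Mcm5*, *Cdc20*, *Aurka* and *Bub1b*) and above for 0. The share of all genes that separate in this way is not given here. Without the libraries labelled Wnt9bKO 2 and DKO 3 the count was 0 as well. These groups also differ in sex as read from *Xist*.

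Between DKO and Rspo2KO, a comparison without wt, 10 of 43 members passed, against 18.2% of all genes (9.15% higher and 9.07% lower) and 25.6% of those as highly expressed. *Plk1* (0.90, adjusted p = 0.000115), *Rrm2* (0.60, adjusted p = 0.0103), *Cenpf* (0.39, adjusted p = 0.0422) and *Aurka* (0.33, adjusted p = 0.0158) were higher in DKO. *Mcm2* (-0.74, adjusted p = 0.000269), *Gins2* (-0.59, adjusted p = 0.00539), *Mki67* (-0.53, adjusted p = 0.0143), *Mcm5* (-0.46, adjusted p = 0.00836), *Mcm6* (-0.37, adjusted p = 0.0408) and *Ccnb2* (-0.36, adjusted p = 0.0222) were lower. Only *Mcm2*, *Gins2* and *Plk1* passed in all 22 alternatives. The count was 5 without Rspo2KO 2 or Rspo2KO 3, 6 without DKO 1 or DKO 2, and 14 without Rspo2KO 1. The calls over all genes tested moved likewise, from 1584 higher and 1571 lower with all libraries. They were 922 and 801 without Rspo2KO 2, 835 and 848 without Rspo2KO 3, 978 and 881 without DKO 1, and 942 and 937 without DKO 2. Without Rspo2KO 1 they were 2017 and 1974. Without the libraries labelled Wnt9bKO 2 and DKO 3 it was 11, with *Cenpf* lost (0.28, adjusted p = 0.166). Here too the groups differ in sex as read from *Xist*.

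The departure of DKO from the sum of both single changes was tested as an interaction on the log2 scale. It passed for 0 of 43 members by edgeR (0.0635% of all genes) and for 0 by DESeq2, and 5 members had an unadjusted p below 0.05, against 9.45% of all genes. These were *Cdt1* (-0.77, adjusted p = 0.427), *Rrm2* (-0.54, adjusted p = 0.465), *Fen1* (0.61, adjusted p = 0.442), *Cdk1* (0.46, adjusted p = 0.5) and *Aurka* (0.35, adjusted p = 0.435). In all 5 the sign is opposite to the log2 fold change in DKO, so the double mutant lay closer to wt than the sum of both single changes. *Cdt1* passed when genes with low counts were kept (adjusted p = 0.0223). Without the libraries labelled Wnt9bKO 2 and DKO 3 the count was 0. The *Xist* levels split the groups in the same way as this contrast does, and their part in it cannot be told apart.

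**Figure D4:**
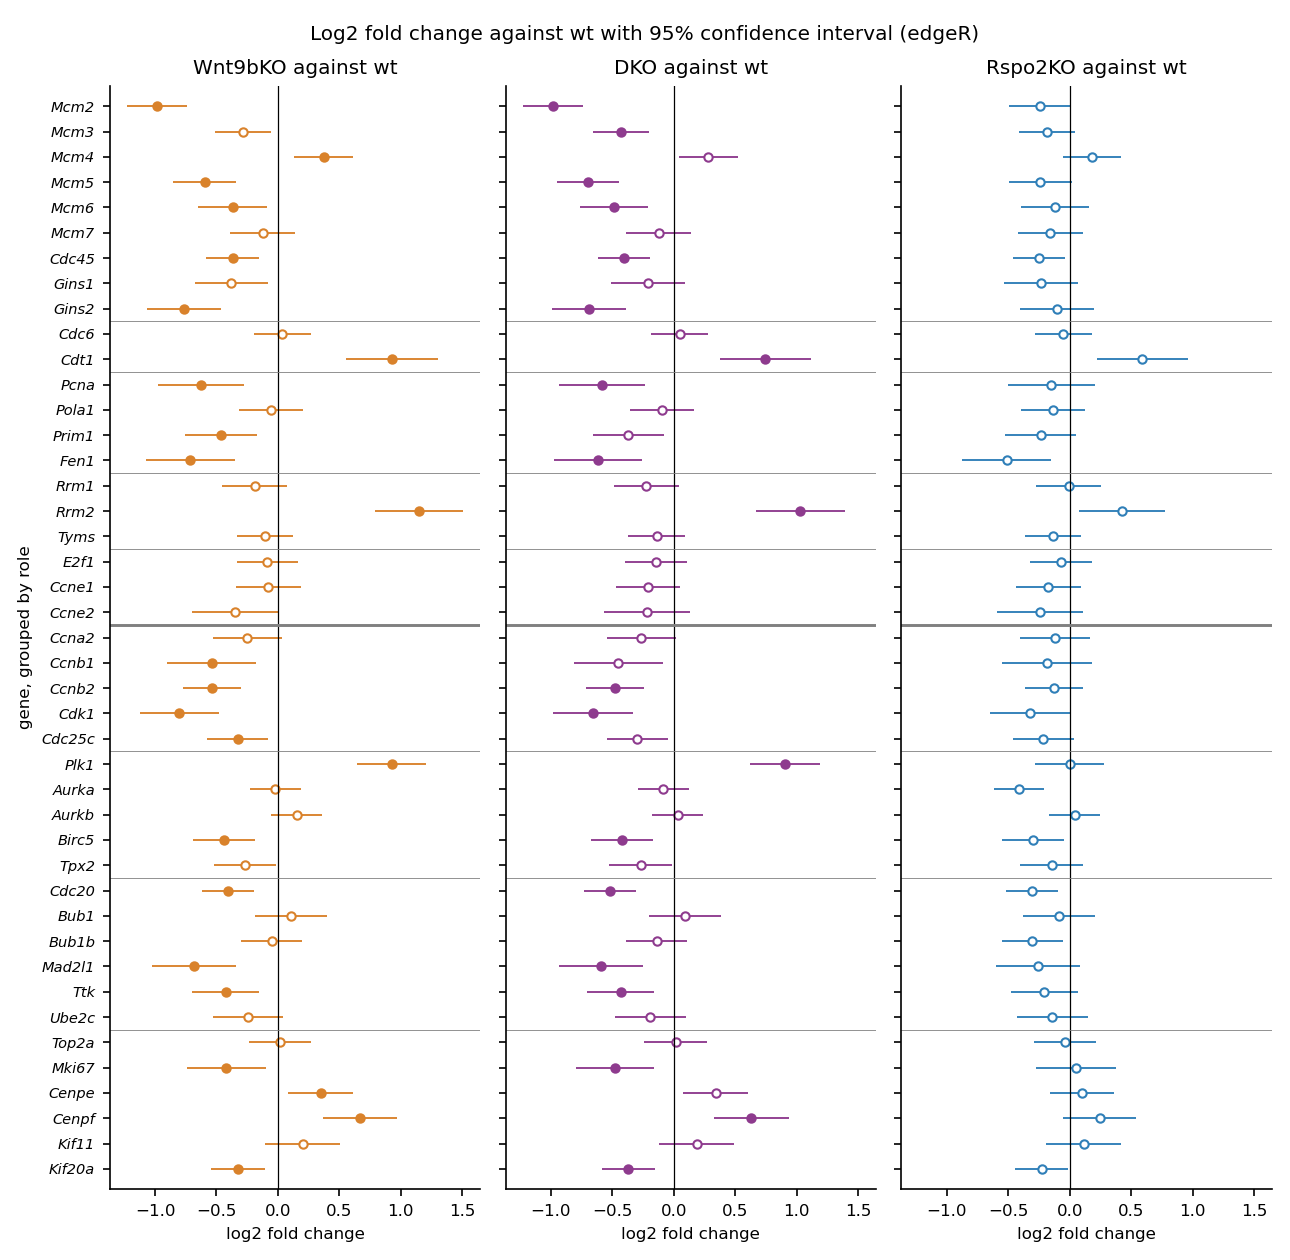
Log2 fold change against wt of the 43 genes in Wnt9bKO, DKO and Rspo2KO, with 95% confidence intervals (edgeR). Filled points passed at an adjusted p below 0.05, 24 in Wnt9bKO, 20 in DKO and 0 in Rspo2KO, and all 3 panels share the same 2 wt libraries.

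S-phase and G2/M genes had similar medians and shares of calls. In Wnt9bKO 11 of 21 S-phase genes passed, of which 3 were higher, and 13 of 22 G2/M genes, of which again 3 were higher. In DKO 10 genes of each phase passed, with 2 higher and 8 lower in both. Without the libraries labelled Wnt9bKO 2 and DKO 3 these numbers were 11 and 12 in Wnt9bKO and 11 and 11 in DKO. The median log2 fold change was -0.29 for S-phase and -0.26 for G2/M genes in Wnt9bKO, -0.22 and -0.27 in DKO and -0.15 and -0.14 in Rspo2KO. The G2/M median minus the S-phase median was thus 0.03 in Wnt9bKO, -0.05 in DKO and 0.00 in Rspo2KO. Over the alternatives this difference ranged from -0.035 to 0.088 in Wnt9bKO, so its sign there depends on the processing. Taken in each library from the log2 CPM relative to wt, the difference of medians had a pooled SD within genotypes of 0.0376. It ran from -0.054 to 0.038 in Wnt9bKO, -0.074 to 0.009 in DKO and 0.005 to 0.020 in Rspo2KO. Taken over means instead of medians, G2/M minus S-phase was 0.01 to 0.08 in the Wnt9bKO libraries, 0.01 to 0.09 in DKO and -0.04 to -0.02 in Rspo2KO. The sign in each mutant genotype thus depends on the choice of mean or median, in Wnt9bKO and DKO for some of the libraries. Averaged per library relative to wt, the S-phase genes lay between -0.32 and -0.11 in Wnt9bKO, between -0.31 and -0.12 in DKO and between -0.21 and -0.03 in Rspo2KO. The G2/M genes lay between -0.30 and -0.08, between -0.22 and -0.05 and between -0.24 and -0.08. Libraries with low S-phase genes also had low G2/M genes, and Wnt9bKO 1, DKO 1 and Rspo2KO 1 were the lowest of their genotypes on both.

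**Figure D5:**
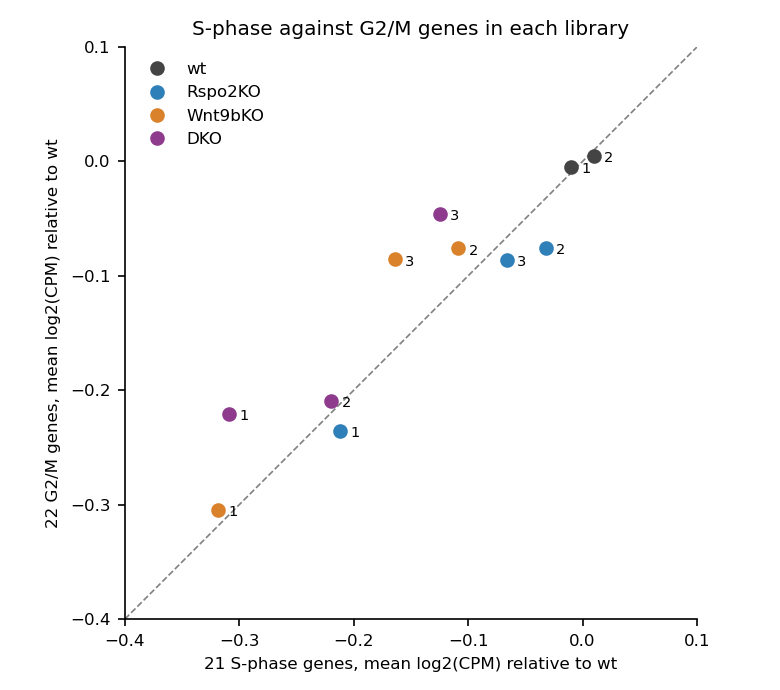
Mean log2 CPM relative to wt of the 21 S-phase genes (horizontal) and the 22 G2/M genes (vertical) in each of the 11 libraries, numbered by replicate, with the dashed line marking equality. The mutant libraries spread along the line, and no genotype is displaced from it by more than 0.09 in any library.

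Other genes of the cell cycle were read from lists fixed by role with earlier results of these data known. Of all genes tested, 32.8% passed in Wnt9bKO and 27.5% in DKO. Among those whose mean level was at least that of the lowest member, 44.4% and 38.8% did. Of 40 other replication genes, 19 passed in Wnt9bKO (7 higher and 12 lower, median log2 fold change -0.22) and 17 in DKO (4 higher and 13 lower, median -0.22). The smallest p-values in both were those of genes that fell, among them *Pold2*, a subunit of DNA polymerase delta (-1.43, adjusted p = 3.98e-06 in Wnt9bKO and -1.47, adjusted p = 3.75e-06 in DKO), the clamp loader gene *Rfc2* (-0.84 and -0.74) and the ligase gene *Lig1* (-0.61 and -0.69). In addition, *Orc6* of the origin recognition complex fell by 0.74 in Wnt9bKO and *Pold3* by 0.62 in DKO.

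Of 40 other mitosis genes, 12 passed in Wnt9bKO (7 higher and 5 lower, median -0.07) and 14 in DKO (7 higher and 7 lower, median -0.05). Neither share was above that of genes expressed as highly as the members (44.4% and 38.8%). The kinesin gene *Kif22* had the smallest p (-1.06 in both genotypes, adjusted p = 8.27e-06 and 9.72e-06), and the checkpoint gene *Bub3* fell by 0.72 and 0.69. The spindle gene *Hmmr* rose by 0.89 and 0.97, the separase gene *Espl1* by 0.74 in Wnt9bKO and the condensin gene *Smc4* by 0.95 in DKO. Of 33 tested genes of G1/S control, 19 passed in Wnt9bKO (12 higher and 7 lower) and 15 in DKO (8 higher and 7 lower). *Fzr1*, the G1 activator of the APC/C, had -1.16 and -1.22, the CDK inhibitor *Cdkn1a* -1.90 and -1.92, and *Tfdp1*, the partner of E2F factors, -0.64 and -0.67, while the repressor *E2f8* rose by 1.15 in Wnt9bKO and *E2f6* by 0.75 in DKO. In Rspo2KO 0 genes of these lists passed by edgeR. At an unadjusted p below 0.05 were 12 of 40, 5 of 40 and 6 of 33, against 11.9% of all genes tested.

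Markers of the cell types in the tissue were read in the same libraries, 10 genes per list. For scale, 32.8% of all genes tested passed in Wnt9bKO and 27.5% in DKO. Facial mesenchyme markers summed to 1153 to 1189 CPM in wt, 875 to 1795 in Wnt9bKO and 1114 to 1214 in DKO, with 3 of 10 higher in Wnt9bKO and 1 higher and 1 lower in DKO. Surface epithelium markers had 1 higher and 1 lower in each, with sums of 269 to 280.5 CPM in wt, 257 to 294 in Wnt9bKO and 265 to 299 in DKO. Erythroid markers fell in 5 of 10 genes in Wnt9bKO and 8 of 10 in DKO, from a sum of 4019 to 4995 CPM in wt to 1795 to 2914 CPM in both mutants. Forebrain and eye markers rose in 7 and 5 of 10, from 116 to 130.4 CPM in wt to 144 to 296 CPM in Wnt9bKO and 166 to 205 CPM in DKO. Neuron markers had 3 of 10 lower in Wnt9bKO and 4 of 10 higher in DKO, with sums of 670.2 to 781 CPM in wt, 415 to 663 in Wnt9bKO and 798 to 888 in DKO. Endothelium markers had 2 higher in each and 4 and 3 lower, with sums of 258 to 287 CPM in wt, 269 to 283 in Wnt9bKO and 263 to 288 in DKO. Striated muscle markers, of which 5 were tested, had 4 lower in each, from 11.1 and 67.0 CPM in wt to 4.47 to 13.2 in Wnt9bKO and 6.80 to 10.2 in DKO. For each list 0 genes were at 0 in a whole group. In Rspo2KO 0 genes of these lists passed by edgeR, with 0 to 4 per list at an unadjusted p below 0.05. That level was met by 11.9% of all genes tested, and by 4 of the 5 striated muscle markers tested. The part of these cell types in the changes of the replication and mitosis genes was not tested.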

How the data were processed

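RNA-seq counts of 11 libraries were used (wt 2, and 3 each of Rspo2KO, Wnt9bKO and DKO), grouped by the genotype and numbered by the titles in the labels. The paper's methods give 3 samples per genotype. The authors deposited counts, whole numbers of reads per Ensembl gene and library, not normalized. Per the paper's methods, the authors sequenced single-end reads of 50 bases, removed adapters with Cutadapt (dropping reads under 30 bases), aligned to GRCm38 using STAR, and took the counts from HTSeq-Count. Versions and strand setting are not given in the sources used here. Reads of 50 bases shared between copies or overlapping genes are therefore uncertain.

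From these counts, genes were filtered with edgeR's filterByExpr, leaving 17317 of 38561, all 43 members included. Levels are CPM on totals scaled by TMM factors (0.915 to 1.10). In edgeR 4.0.16, 1 quasi-likelihood fit of the 4 genotype means took in all 11 libraries (R 4.3.3, limma 3.58.1), since wt has only 2 of them, and two-sided p-values received a Benjamini-Hochberg adjustment over all genes tested. The 3 mutants were compared with wt, DKO also with both single mutants, and an interaction was tested. The paper's methods name DESeq2 with an unadjusted p below 0.05 and over 1.5-fold, and DESeq2 1.42.0 and this rule are given as alternatives. Confidence intervals are at 95%. This fit was first tested on simulated data holding known changes. Summaries were made in Python 3.11.15 (pandas 2.3.3, scipy 1.17.1, numpy 2.4.6) and drawn in matplotlib 3.10.9.

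The members, the other lists and the roles were chosen with earlier results of these data known. Values per library are given for the members among the 3 S-phase or 3 G2/M genes with the smallest p, or with the largest rise or fall, in any comparison with wt, plus *Pcna*, *E2f1*, *Ccne1*, *Ccnb1*, *Cdk1* and *Mki67*, which makes 18 genes. Of the other cell cycle lists, up to 4 genes with the smallest p per comparison are named. Positions and exon lengths come from the GRCm38 annotation and promoter windows from RefSeq. The alternatives were DESeq2, RLE and upper-quartile factors, either no filter or a minimum of 10 counts in each library, a fit to only the groups compared, the replicate block, an offset from loess curves on length and GC content (span 0.3) with and without that block, autosomal protein-coding genes only, the study's rule, leaving out each library, and leaving out Wnt9bKO 2 with DKO 3.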

Additional observations from a re-analysis of the deposited data

How the results depend on the processing

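Members that passed kept their direction in each alternative that was run, while values near 0 that did not pass could change sign. The count of members that passed was within 1.5 times the main count in most alternatives. Under the study's rule (unadjusted p below 0.05 and over 1.5-fold) it was 11 in Wnt9bKO instead of 24, 11 in DKO instead of 20, 1 in Rspo2KO instead of 0, 4 between DKO and Rspo2KO instead of 10, and 2 for the interaction instead of 0. DESeq2 and the fit without a filter on low counts each gave 1 in Rspo2KO, and the latter 1 for the interaction. Leaving out single libraries gave 11 to 26 in Wnt9bKO (11 without wt 1 and 14 without wt 2), 10 to 24 in DKO (10 without wt 1, 12 without wt 2 and 12 without DKO 1), 5 to 14 between DKO and Rspo2KO, and 0 in each run for Rspo2KO, DKO against Wnt9bKO and the interaction. A single wt library was then assumed to vary like the other groups, and which part of the loss comes from fewer samples was not tested.

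Calls that held in all 22 alternatives (the study's rule not counted) numbered 9 of 24 in Wnt9bKO (*Mcm2*, *Mcm5*, *Cdt1*, *Gins2*, *Rrm2*, *Ccnb2*, *Cdk1*, *Plk1* and *Mad2l1*), 7 of 20 in DKO (*Mcm2*, *Mcm5*, *Gins2*, *Rrm2*, *Cdk1*, *Cdc20* and *Plk1*) and 3 of 10 between DKO and Rspo2KO. The G2/M minus S-phase median in Wnt9bKO (0.03) was -0.029 with the replicate block, 0.077 with the GC and length offset, 0.088 with both, -0.035 without the libraries labelled Wnt9bKO 2 and DKO 3, and -0.035 to 0.028 without single libraries, and the cause was not tested. The labels do not say whether the replicate numbers pair the samples. The correlations of same-numbered libraries' deviations ran from -0.11 to 0.24 over 15 pairs, those between mutants from 0.04 to 0.24. Differently numbered libraries were not compared, so these values cannot decide on pairing. With the replicate number as a block the counts were 28 in Wnt9bKO, 25 in DKO, 0 in Rspo2KO, 0 between DKO and Wnt9bKO, 13 between DKO and Rspo2KO and 0 for the interaction. The interaction needs all 4 groups, so it could not be fitted with fewer.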
